A study of Homo sapiens with 4 samples.

Results

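miR-19a-3p, miR-19b-3p, miR-92a-3p and miR-25-3p are 4 of the 939 miRNAs on the array, and they stand for 2 seed families, miR-19 and miR-92/25. They were taken by name from the scanner output, and they were chosen by the detection calls of the scanner software on these arrays: they are the members of both families that it called detected, each of them on all 4 arrays. The other 4 members of the miR-92/25 family on the array, miR-92b-3p, miR-32-5p, miR-363-3p and miR-367-3p, were not detected on any array and are listed there at 0.1, the value given to every undetected miRNA. The dimmest signal of a chosen member was 16.4, that of miR-19a-3p on 1 non-MG array.

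The arrays compared MG cells with non-MG cells, both taken from HCT116, a colon cancer cell line with wild-type p53. HCT116 cells were placed in transwell chambers. Those that crossed the membrane became the MG cells (labelled high migratory) and those that stayed above it the non-MG cells (labelled low migratory). The authors report that this selection was repeated several times and that both subpopulations were cultured afterwards. Each group is thus a selected subpopulation of 1 line, and no other treatment is named. Total RNA of 2 MG and 2 non-MG samples was hybridised to 1-colour Agilent human miRNA arrays, to ask which miRNAs differ with migratory capacity. Nothing says that the samples of a group came from separate cultures, so the p-values measure only the spread between these samples, which may be technical.

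The 4 arrays shared 1 slide, non-MG in row 1 at columns 3 and 4, and MG in row 2 at columns 1 and 2. An effect of the row or of these columns cannot be told apart from one of the group. Between 8.71% and 11.1% of the spots were well above background and none was saturated. The replicate spots of a probe had a median coefficient of variation of 34.9% on non-MG replicate 2 against 11.6% to 16.9% on the other arrays, so this array stands apart and results are also given without it. Of 8 miRNAs listed as markers of colon epithelium, the 5 of the miR-200 family were detected on all arrays, while miR-192-5p, miR-194-5p and miR-215-5p were not detected. Of 14 markers of other cells, 12 were not detected, miR-126-3p lay between 6.27 and 10.4 and miR-145-5p reached at most 8.76. The summed signal of these other-cell markers ranged from 15.0 to 16.2 in non-MG cells and from 8.62 to 14.9 in MG cells, and its part in the results was not tested.

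A mature miRNA guides the Argonaute protein to messenger RNAs that pair with its seed, so miRNAs with the same seed can repress overlapping sets of targets. miR-19 is regarded as a main growth-promoting component of the miR-17-92 cluster. miR-92a comes from the same primary transcript, whereas miR-25 is made with miR-106b and miR-93 from an intron of the replication gene MCM7 and represses the cell death gene BCL2L11. MYC and E2F1 are known to drive transcription of these clusters.

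The mature sequences show what the members share. All 4 are given below, 5′ to 3′, from RefSeq (GRCh38.p14) with the seed, bases 2 to 8 counted from the 5′ end, in capitals.
hsa-miR-19a-3p: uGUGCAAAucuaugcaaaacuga
hsa-miR-19b-3p: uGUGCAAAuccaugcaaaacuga
hsa-miR-92a-3p: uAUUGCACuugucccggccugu
hsa-miR-25-3p: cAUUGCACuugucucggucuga

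Both miR-19 members had 1 seed, and they were identical at 22 of 23 bases, the difference being U11C (the base of miR-19a-3p first, positions from the 5′ end). miR-92a-3p and miR-25-3p also had 1 seed and were identical at 18 of 22 bases, with the differences U1C, C14U, C18U and U22A (the base of miR-92a-3p first). G and C made up 34.8% of miR-19a-3p and 39.1% of miR-19b-3p, against 54.5% of miR-92a-3p and 50% of miR-25-3p. Whether the probes of 1 miR-19 member also bind the other, 1 base apart, was not tested.

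The 4 undetected members of the miR-92/25 family are shown because they have the same seed as miR-92a-3p and miR-25-3p, so that within this family detection divided miRNAs that the seed does not.
hsa-miR-92b-3p: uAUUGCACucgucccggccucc
hsa-miR-32-5p: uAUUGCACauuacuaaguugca
hsa-miR-363-3p: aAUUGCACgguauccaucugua
hsa-miR-367-3p: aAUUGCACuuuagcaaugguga

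miR-92b-3p was identical to miR-92a-3p at 19 of 22 bases, more than miR-25-3p was. miR-32-5p, miR-363-3p and miR-367-3p were identical to miR-92a-3p at 11, 10 and 12 of 22 bases.

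In the GRCh38.p14 annotation miR-19a-3p lies at chr13:91350939-91350961 on the plus strand, in the noncoding host gene MIR17HG. miR-19b-3p has a copy at chr13:91351245-91351267 in MIR17HG and another at chrX:134169683-134169705 on the minus strand. miR-92a-3p likewise has a copy at chr13:91351361-91351382 in MIR17HG and another at chrX:134169544-134169565 on the minus strand. miR-25-3p lies at chr7:100093571-100093592 on the minus strand, within MCM7. MIR17HG holds 6 miRNA genes (MIR17, MIR18A, MIR19A, MIR20A, MIR19B1 and MIR92A1), the X chromosome cluster from MIR106A to MIR363 also holds 6, and MCM7 holds 3 (MIR25, MIR93 and MIR106B). Because the mature forms from chromosomes 13 and X are identical, the arrays cannot divide miR-19b-3p or miR-92a-3p between their copies.

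Both miR-92/25 members were lower on both MG arrays than on both non-MG arrays, as were 40.4% of the 57 human miRNAs tested. The change of miR-92a-3p passed the test, where 14.0% of the 57 were called lower. Both miR-19 members differed more between the arrays of 1 group than between the groups. The values that follow are intensities of each miRNA, put on 1 scale by giving every array the same 75th percentile, taken over those miRNAs that all arrays detected. They compare 1 miRNA between arrays, and the brightness of different probes says nothing on which miRNA is more abundant. In bulk RNA, fewer cells with a miRNA and less of it per cell cannot be told apart.

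**Figure D1:**
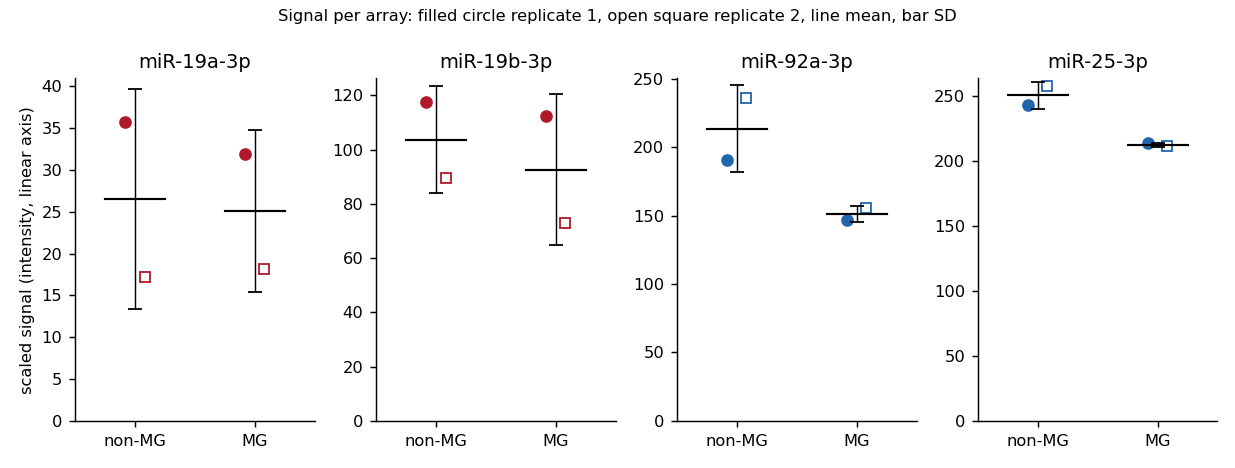
Scaled signal (intensity, linear axis from 0) of each of the 4 miRNAs in non-MG and MG cells, with 1 point per array, a line at the group mean and a bar of 1 SD (n = 2). For miR-92a-3p and miR-25-3p both MG points lie below both non-MG points, while for miR-19a-3p and miR-19b-3p each group has 1 high and 1 low point.

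miR-92a-3p, the family member that matures from the last position of the miR-17-92 transcript, had a scaled signal of 191 and 236 in the 2 non-MG samples and of 147 and 156 in the 2 MG samples. The MG arrays agreed closely, the non-MG arrays lay further apart, and the groups did not overlap. The means were 214 ± 31.8 (SD, n = 2) in non-MG cells and 151 ± 5.96 (SD, n = 2) in MG cells. The log2 change was -0.49 (95% interval -0.79 to -0.19), or 0.713-fold, with an adjusted p of 0.0125 in limma over the 57 human miRNAs tested. Without non-MG replicate 2 it was -0.34 with a limma adjusted p of 0.245, and without MG replicate 1 it was -0.45 with a limma adjusted p of 0.0523. It was below 0 in all 18 alternatives run and kept its call in 12 of them.

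miR-25-3p, from the MCM7 intron, had 243 and 258 in the non-MG samples and 214 and 212 in the MG samples. Arrays of 1 group lay close together and the groups did not overlap, though with quantile normalization they did. The means were 251 ± 10.6 (SD, n = 2) and 213 ± 1.55 (SD, n = 2). The log2 change was -0.24 (95% interval -0.53 to 0.06), or 0.849-fold, and it did not pass limma's test (adjusted p = 0.244). It was below 0 in all 18 alternatives, from -0.46 to -0.08, and passed the test in none of them, with limma adjusted p from 0.0917 to 0.486. Without non-MG replicate 2 it was -0.19.

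miR-19b-3p had 117 and 89.6 in the non-MG samples and 112 and 72.8 in the MG samples. One array of each group was high and the other low, and the groups overlapped. The means were 104 ± 19.7 (SD, n = 2) in non-MG cells and 92.5 ± 27.9 (SD, n = 2) in MG cells. The log2 change of -0.18 (95% interval -0.48 to 0.12) did not pass limma's test (adjusted p = 0.406). Its value rested on single arrays, being 0.01 without non-MG replicate 1, -0.38 without non-MG replicate 2 and 0.13 without MG replicate 2. Without MG replicate 1 it was -0.49 and passed the test (limma adjusted p = 0.0363).

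miR-19a-3p was the dimmest of the 4, with 35.8 and 17.3 in the non-MG samples and 31.97 and 18.2 in the MG samples. As for miR-19b-3p, each group held a high and a low array, and the groups overlapped. The means were 26.5 ± 13.1 (SD, n = 2) and 25.1 ± 9.72 (SD, n = 2). It was below the signal of 50 that a miRNA had to reach on at least 1 array to be tested, so its log2 change of -0.04 has no test in the main fit. With that minimum lowered to 20, which admitted 91 miRNAs, limma gave an interval of -0.45 to 0.36 and an adjusted p of 0.936, where 11.0% of the 91 were called lower in MG cells. Its sign turned with median scaling (0.01), with quantile normalization (0.18), without non-MG replicate 1 (0.48) and without MG replicate 2 (0.36), and it was -0.57 without non-MG replicate 2 and -0.45 without MG replicate 1.

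Of the 3 members tested, 1 was called lower in MG cells, where 14.0% of the 57 tested were. Both MG arrays lay below both non-MG arrays for 2 of the 3, where the same held for 40.4% of the 57. The median log2 change of the 3 was -0.24, beside -0.08 over the 57. With 3 members these counts set nothing apart. By change, miR-92a-3p ranked 3 from the lowest of the 57, miR-25-3p ranked 20 and miR-19b-3p ranked 23.

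**Figure D2:**
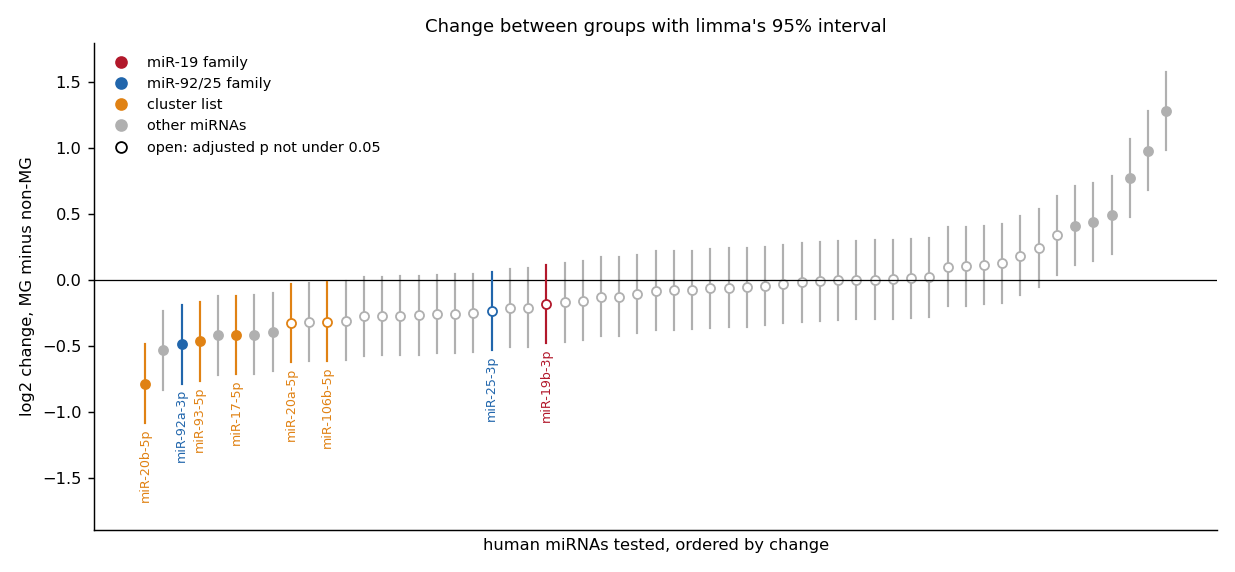
Log2 change, MG minus non-MG, of the 57 human miRNAs tested, ordered from lowest to highest, with limma's 95% interval. Filled points had an adjusted p under 0.05, and of the members only miR-92a-3p (-0.49) is filled, among the lowest changes, while miR-25-3p and miR-19b-3p sit higher in the order with intervals that cross 0.

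The 2 families were set against each other within each array. The mean log2 signal of miR-92a-3p and miR-25-3p was 7.75 and 7.95 in non-MG cells and 7.47 and 7.50 in MG cells, and the groups did not overlap. That of miR-19a-3p and miR-19b-3p was 6.02 and 5.30 in non-MG cells and 5.90 and 5.19 in MG cells, which overlap. The change was -0.36 for miR-92/25, from -0.46 to -0.26 when single arrays were left out, and -0.11 for miR-19, from -0.47 to 0.25. Their difference on an array, miR-92/25 minus miR-19, was 1.73 and 2.65 in non-MG cells and 1.57 and 2.32 in MG cells, so the change of the difference, -0.25, was smaller than the gap between the arrays of either group. Between same-numbered arrays the difference was lower in MG cells for both replicate numbers. Its change ranged from -0.71 to 0.21 when single arrays were left out.

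The 4 members form 6 pairs, of which the 3 among miR-19b-3p, miR-92a-3p and miR-25-3p were tested for unequal change with limma on the log2 difference within each array, adjusted over all 1596 pairs of the 57 miRNAs. None passed after adjustment, where 21.1% of all pairs did, and none of the 3 had an unadjusted p under 0.05. The pairs called in all, 337, fell to 90 without non-MG replicate 1 and to 99 without non-MG replicate 2. Between the families, miR-19b-3p minus miR-92a-3p changed by 0.31 (95% interval -0.28 to 0.89, limma adjusted p = 0.454) and miR-19b-3p minus miR-25-3p by 0.05 (95% interval -0.45 to 0.56, limma adjusted p = 0.899). Within the miR-92/25 family, miR-25-3p minus miR-92a-3p changed by 0.25 (95% interval -0.11 to 0.62, limma adjusted p = 0.321), and by 0.14 without non-MG replicate 2 (limma adjusted p = 0.647). That miR-92a-3p passed its own test and the others did not is thus no test that they differ. In this fit without a block the intervals include both 0 and differences as large as the change of miR-92a-3p itself. In the fit with the lower minimum all 6 pairs, those of miR-19a-3p included, had limma adjusted p between 0.421 and 0.924. With replicate number as a block, the interval of miR-19b-3p minus miR-92a-3p was 0.03 to 0.59, without 0, but the pair did not pass (limma adjusted p = 0.0761). The other 2 intervals still held 0, -0.23 to 0.33 for miR-19b-3p minus miR-25-3p and -0.03 to 0.53 for miR-25-3p minus miR-92a-3p.

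Arrays of 1 group differed more in the miR-19 members than in the miR-92/25 members. miR-19a-3p was 2.07-fold higher on non-MG replicate 1 than on non-MG replicate 2, and 1.76-fold higher on MG replicate 1 than on MG replicate 2. For miR-19b-3p these ratios were 1.31 and 1.54. For miR-92a-3p they were 0.81 and 0.946, and for miR-25-3p 0.942 and 1.01. Within groups the SD of log2 signal was 0.66 for miR-19a-3p and 0.37 for miR-19b-3p, ranks 1 and 2 among the 91 miRNAs past the lower minimum, whose median was 0.13. It was 0.16 for miR-92a-3p and 0.04 for miR-25-3p. The fit gave every one of the 57 miRNAs a pooled SD of 0.15, so the interval of miR-19b-3p is narrower than its own arrays would give and that of miR-25-3p is wider.

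**Figure D3:**
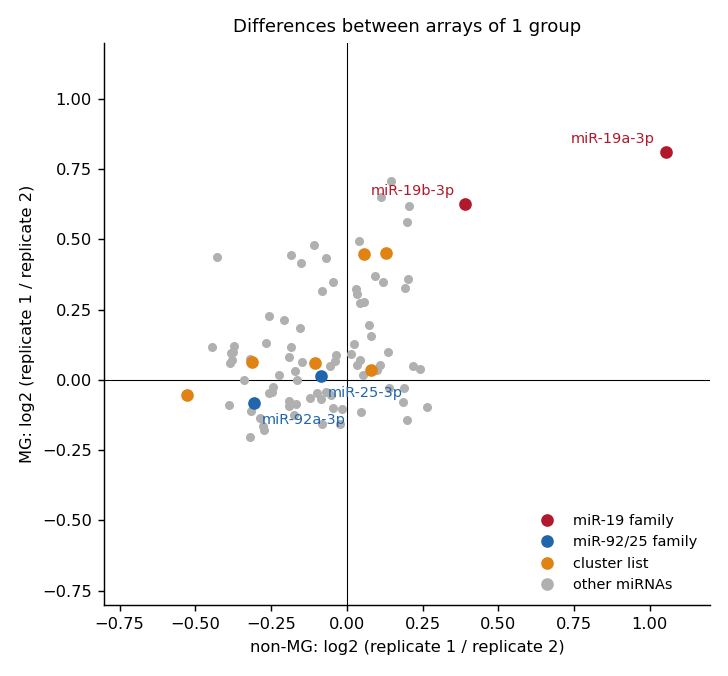
Log2 ratio of replicate 1 over replicate 2 in non-MG cells (horizontal axis) and in MG cells (vertical axis) for the 91 human miRNAs past the lower signal minimum of 20, 1 point per miRNA. miR-19a-3p (1.05 and 0.81) and miR-19b-3p (0.39 and 0.62) lie at the upper right, away from miR-92a-3p (-0.30 and -0.08) and miR-25-3p (-0.09 and 0.01) near the centre.

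Other measures were set beside this spread. Spots well above background were 11.1% and 9.62% on non-MG replicates 1 and 2 and 10.5% and 8.71% on MG replicates 1 and 2, so in each group the array with less miR-19 also had fewer such spots. Of the 91 miRNAs, 30 were higher on replicate 1 in both groups, so most did not share the direction of the miR-19 members. Across the 76 of the 91 (83.5%) with 1 matching mature sequence in RefSeq, the log2 ratio of replicate 1 over replicate 2 had a Pearson correlation with GC content of -0.35 (Spearman -0.45) in MG cells and of -0.18 (Spearman -0.20) in non-MG cells. Without the 2 miR-19 members, 74 miRNAs gave -0.32 (Spearman -0.41) and -0.11 (Spearman -0.15). Against the mean log2 signal of each of the 91 miRNAs, the Pearson correlation was -0.16 (Spearman -0.15) in MG cells and -0.04 (Spearman -0.06) in non-MG cells. Without the miR-19 members it was -0.14 and 0.03 (Spearman -0.13 and -0.04). These describe miRNAs that share the same 4 arrays and are not independent. What part array quality, base composition or signal level had in the spread of miR-19 was not tested.

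Each member was read by 2 probes, printed in 8 spots each per array. Both probes of miR-92a-3p were lower in MG cells. Its brighter probe had 148 and 197 in non-MG cells and 120 and 125 in MG cells, a log2 change of -0.48. Its dimmer probe had 42.5 and 38.8 in non-MG cells and 27.5 and 30.4 in MG cells, a log2 change of -0.49. Neither probe's groups overlapped. The probes differed on non-MG replicate 2, where the brighter was higher than on non-MG replicate 1 and the dimmer was lower. On that array their spots had coefficients of variation of 29.7% (brighter) and 47.9% (dimmer).

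The probes of miR-25-3p differed from each other. The brighter had 209 and 185 in non-MG cells and 187 and 176 in MG cells, a log2 change of -0.12 with overlapping groups. The dimmer had 34.0 and 73.0 in non-MG cells and 27.4 and 35.3 in MG cells, a log2 change of -0.68, also with overlap. The high value of the dimmer probe came from non-MG replicate 2, where its spots had a coefficient of variation of 57.8%. The separation of the groups in the summed signal of miR-25-3p was therefore not present in either probe on its own.

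Both probes of each miR-19 member were lower on replicate 2 than on replicate 1 in both groups. The brighter probe of miR-19b-3p had 87.7 and 69.9 in non-MG cells and 88.6 and 57.3 in MG cells, and the dimmer one had 29.8 and 19.7 in non-MG cells and 23.6 and 15.5 in MG cells. The brighter probe of miR-19a-3p had 22.1 and 9.68 in non-MG cells and 22.2 and 12.1 in MG cells, and the dimmer one 13.7 and 7.58 in non-MG cells and 9.81 and 6.08 in MG cells. The group changes of both probes of miR-19a-3p had opposite signs, 0.17 and -0.40. On MG replicate 2 the dimmer probe of miR-19a-3p had 0 of 8 spots well above background, so its value there is near the limit of what the array measured.

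**Figure D4:**
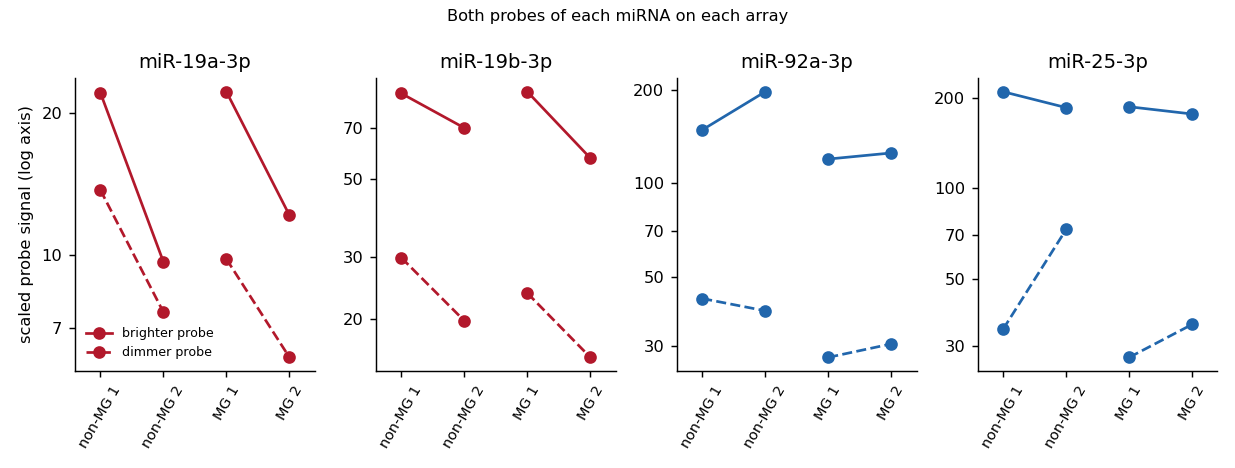
Scaled signal (log axis) of both probes of each miRNA on the 4 arrays, with lines joining arrays of 1 group, solid for the brighter and dashed for the dimmer probe. All 4 miR-19 lines fall from replicate 1 to replicate 2 in both groups, both miR-92a-3p lines sit lower in MG cells, and the dimmer miR-25-3p probe has 1 high value, 73.0, on non-MG replicate 2.

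The members are made together with other miRNAs of the miR-17-92, miR-106a-363 and miR-106b-25 clusters. A list of 24 such miRNAs, both arms, was drawn up with earlier results of these data known, so it gives no independent support for a direction. The scanner output holds 23 of them (miR-106a-5p was not analysed here), of which 8 were detected somewhere and 7 on every array. The opposite arms of the members (miR-19a-5p, miR-19b-1-5p, miR-19b-2-5p, miR-92a-1-5p, miR-92a-2-5p and miR-25-5p) were all undetected. Of the list, 5 reached the signal minimum and were tested, all 5 of them miRNAs of the miR-17 seed family, which is known to repress the cell cycle inhibitor CDKN1A.

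From the miR-17-92 cluster, miR-17-5p had 229 and 285 in non-MG cells and 196 and 187 in MG cells, a log2 change of -0.42 (limma adjusted p = 0.0313). The call of miR-17-5p held in 6 of 18 alternatives and was lost whichever array was left out, with -0.26 (limma adjusted p = 0.349) without non-MG replicate 2. Its partner miR-20a-5p had 301 and 323 in non-MG cells and 254 and 243 in MG cells, a log2 change of -0.33 that did not pass (limma adjusted p = 0.112). Both were apart and lower in MG cells, as was miR-92a-3p, where 40.4% of the 57 tested were. The groups overlapped for miR-19a-3p and miR-19b-3p. Because miR-19b-3p and miR-92a-3p also have X chromosome copies, their signal cannot be assigned to this transcript alone.

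From the X chromosome cluster, miR-20b-5p had 46.3 and 66.7 in non-MG cells and 31.6 and 32.8 in MG cells. Its log2 change was -0.79 (limma adjusted p = 1.5e-05), and -0.52 without non-MG replicate 2. Its own within-group SD of log2 signal was 0.27, above the pooled 0.15 of the fit, so this p is smaller than its own arrays would give. Without moderation of the spread the limma adjusted p was 0.304. With normexp background correction the change was -0.28 (limma adjusted p = 0.0458). The call held in 13 of 17 alternatives. miR-20b-5p reached the signal minimum through non-MG replicate 2 alone, so it entered the test by the group in which it was high. Its close relatives miR-20a-5p and miR-17-5p were brighter, and binding across such near-identical miRNAs was not tested.

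From the MCM7 cluster, miR-93-5p had 159 and 150 in non-MG cells and 113 and 110 in MG cells, a log2 change of -0.47 (limma adjusted p = 0.0176). That call held in 11 of 18 alternatives and was lost without non-MG replicate 1 (limma adjusted p = 0.0999), without non-MG replicate 2 (0.0937) and without MG replicate 2 (0.066). miR-106b-5p had 76.0 and 73.1 in non-MG cells and 69.9 and 51.2 in MG cells, a log2 change of -0.32 that did not pass (limma adjusted p = 0.119). It was -0.09 without MG replicate 2 and -0.54, with a call, without MG replicate 1 (limma adjusted p = 0.0245). Both were apart and lower in MG cells, where 40.4% of the 57 tested were, and so was miR-25-3p from the same intron, whose change was -0.24. The groups of miR-106b-5p overlapped without scaling between arrays and with median scaling.

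All 5 were lower in value on both MG arrays than on both non-MG arrays, where 40.4% of the 57 tested were, and 3 of the 5 were called lower, where 14.0% were. Their median log2 change was -0.42, beside -0.08 over the 57. Without scaling between arrays 4 of the 5 were apart and lower, beside 22 of the 57, and with median scaling 4 of the 5, beside 19 of the 57. These counts include miR-20b-5p, whose entry into the test favoured a lower value in MG cells, and with a signal of 50 asked of 2 arrays, which left it out, 2 of the 4 others were called and their median was -0.37. Without non-MG replicate 2 all 5 changes were still below 0, from -0.52 to -0.26. The lower calls did not hold in that fit, which leaves a single non-MG array, neither for the list nor for the rest of the 57. The dimmer miR-18a-5p (30.1 and 27.5 in non-MG cells, 17.7 and 12.9 in MG cells) and miR-18b-5p (9.78 and 12.4 in non-MG cells, 6.45 and 5.67 in MG cells) were below the minimum, and their groups did not overlap either. Of the 11 members and list miRNAs detected on every array, 9 were apart and lower in MG cells in the main scaling, where 40.0% of the 115 human miRNAs so detected were.

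**Figure D5:**
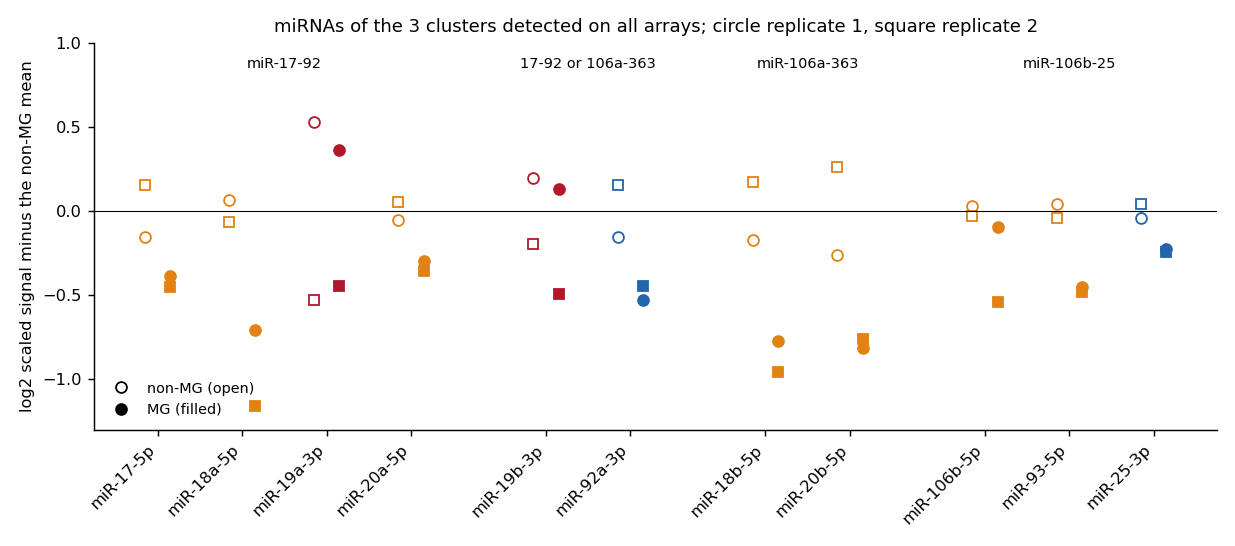
Log2 scaled signal minus the non-MG mean of the same miRNA for the 11 miRNAs of the 3 clusters detected on all arrays, open points for non-MG and filled points for MG arrays, circles for replicate 1 and squares for replicate 2. For 9 of the 11 both filled points lie below both open points, and the exceptions are miR-19a-3p and miR-19b-3p. The same held for 40.0% of the 115 human miRNAs detected on all arrays.

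Among the 54 other miRNAs tested, those with the pattern over the 4 arrays most like each member were found by the root mean square difference of log2 signals after each miRNA's own mean was subtracted. For both miR-19 members these were miR-29b-3p and miR-1260a, at 0.07 and 0.10 for miR-19b-3p and at 0.32 and 0.34 for miR-19a-3p. miR-29b-3p had 147 and 128 in non-MG cells and 150 and 102 in MG cells. For miR-92a-3p they were miR-31-5p (0.04) and the older entry hsa-miR-886-3p_v15.0 (0.06), and miR-31-5p had 159 and 194 in non-MG cells and 126 and 138 in MG cells. For miR-25-3p they were miR-1246 (0.03) and the older entry hsa-miR-1308_v15.0 (0.05). The medians over all 54 were 0.30 for miR-19b-3p, 0.50 for miR-19a-3p, 0.25 for miR-92a-3p and 0.14 for miR-25-3p.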

How the data were processed

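The authors deposited the scanner output of 4 Agilent 1-colour arrays (Feature Extraction 10.7.1.1, grid build hg19), with background-subtracted intensity values and flags, and a table with 1 intensity per miRNA and array, not normalized between arrays. Their methods name GeneSpring and give no normalization or test for the arrays. All 142 detected miRNAs were matched between the table and the scanner names through the summed probe signals. Each array was divided by its 75th percentile over the 116 miRNAs that all arrays detected and brought back to a common level, values under 1 were raised to 1, and log2 was taken. Human miRNAs detected with an unscaled intensity of at least 50 on at least 1 array were tested, 57 in all, with limma 3.58.1 in R 4.3.3 (lmFit and eBayes, two-sided, Benjamini-Hochberg, threshold 0.05, no block). The 57 include entries of older versions, such as hsa-miR-1274b_v16.0, which the authors excluded as a dead miRBase entry. Calls for pairs of miRNAs were adjusted over all pairs. Sequences and loci came from RefSeq tables of GRCh38.p14. Functions were tested on simulated data. The miRNAs named were the members, the tested miRNAs of the cluster list, and the 2 most alike in pattern per member. Dimmer cluster miRNAs were named after their values were seen. The members and lists were chosen with earlier results of these data known. Alternatives covered signal, background, scaling, floor, signal minimum, moderation, replicate block and each array left out. The number of arrays limits the precision. Label protocols describe labelling for gene expression arrays, which leaves the labelling chemistry unclear.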

Additional observations from a re-analysis of the deposited data

How the results depend on the processing

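Across 18 alternatives miR-92a-3p and miR-25-3p stayed below 0, and the call of miR-92a-3p was lost in 6. These were the total signal column of the scanner files (-0.71, limma adjusted p = 0.0503), quantile normalization (-0.39, 0.127), no signal minimum (-0.49, 0.0862), no moderation of the spread (-0.49, 0.304) and the fits without non-MG replicate 2 (-0.34) and without MG replicate 1 (-0.45). Over all fits without 1 array it ran from -0.64 to -0.34. The total column moved the median change of all miRNAs tested from -0.08 to -0.30. Without 1 array miR-19b-3p ran from -0.49 to 0.13 (0.01 without non-MG replicate 1), miR-19b-3p minus miR-25-3p from -0.25 to 0.36, and miR-19b-3p minus miR-92a-3p from -0.046 to 0.66, which passed without MG replicate 2 (limma adjusted p = 0.0247). Both pairs turned sign without non-MG replicate 2 (-0.19 and -0.04) and without MG replicate 1 (-0.25 and -0.046), and miR-19b-3p minus miR-25-3p also with quantile normalization (-0.031). The miR-92/25 mean change was -0.59 with the total column, -0.25 with normexp and -0.24 with quantile normalization, and the median of the cluster list -0.64, -0.28 and -0.31. The cause of these shifts was not tested.

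The 14 miRNAs called in all became 0 with the total column (18 at an unadjusted p under 0.05), 6 without scaling, 0 without moderation (7 unadjusted) and 3 to 11 without 1 array. Called miRNAs of the cluster list became 0 (4 unadjusted), 1, 0 (2 unadjusted) and 0 to 3. With replicate number as a block, 8 were called, miR-92a-3p among them (limma adjusted p = 0.0445), and no member's call changed, but that of miR-17-5p was lost (limma adjusted p = 0.0853), leaving 2 of the cluster list, and called pairs rose from 337 to 623. Deviations of same-numbered arrays from their group means correlated at 0.48 over 57 miRNAs. The labels do not say whether same-numbered samples share a preparation, and with 2 pairs this cannot be decided here. On the slide, replicate 1 had the lower column number in both groups. Markers of other cells detected on all arrays numbered 1 in place of 2. Scaling to the 75th percentile over all miRNAs was not run, since it is the undetected value 0.1 on every array. Signals near background limit miR-19a-3p most.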
